A study of Canis lupus familiaris with 34 samples.

Results

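Skin biopsies of canine mast cell tumours (MCTs) hold epidermis and hair follicles as well as tumour, and genes known from keratinocytes had very different levels from biopsy to biopsy. Whether their RNA came from keratinocytes or from tumour cells was not measured. Here 34 primary cutaneous MCTs were ranked by the mean log2 expression of PKP1, DSP, KRT15 and PERP, and the 11 tumours with the highest mean were compared with the 11 with the lowest, so that 22 of the 34 tumours entered. Both sets are described below as keratinocyte-rich and keratinocyte-poor MCTs, names that stand for this ranking only. Each tumour came from a different dog. Of the 34, 18 were metastasising (M) MCTs, from dogs that died or were put down because of metastatic disease, with or without adjuvant treatment, and 16 were non-metastasising (NM) MCTs, from dogs that had no adjuvant treatment and lived on without detected metastasis. RNA was taken from formalin-fixed, paraffin-embedded (FFPE) diagnostic biopsies and measured on Canine Gene 1.1 ST arrays, which give 1 log2 value per Transcript cluster, the array's unit for a gene.

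Keratinocytes divide in the basal layer of the epidermis, move up through the suprabasal layers and end as the flattened, cross-linked cells of the cornified layer. Basal cells carry keratins 5, 14 and 15 and are fixed to the basement membrane by hemidesmosomes, while suprabasal cells replace these keratins with keratins 1 and 10. Desmosomes, in which plakophilin 1 (PKP1), desmoplakin (DSP) and PERP are found, hold neighbouring keratinocytes together. Hair follicles, sebaceous glands and sweat glands are built of related epithelial cells, so the 4 genes do not tell epidermis from these appendages.

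The 4-gene mean ran from 4.01 to 6.45 (median 5.22) in the 11 keratinocyte-rich MCTs, from 2.51 to 3.45 (median 2.71) in the 12 tumours in between and from 1.89 to 2.48 (median 2.40) in the 11 keratinocyte-poor MCTs. The upper border fell in a gap, between NM replicate 15 at 4.01 and NM replicate 13 at 3.45. The lower border did not: NM replicate 7 at 2.51 was left out and M replicate 17 at 2.48 was included. PKP1, DSP and PERP did not overlap between both sets, as the choice of tumours makes likely. KRT15 overlapped, since M replicate 13 was among the highest tumours with a KRT15 value of 2.43 and the keratinocyte-poor MCTs reached 2.82. The tumours were chosen by these 4 values, which are therefore a description and were not tested.

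**Figure D1:**
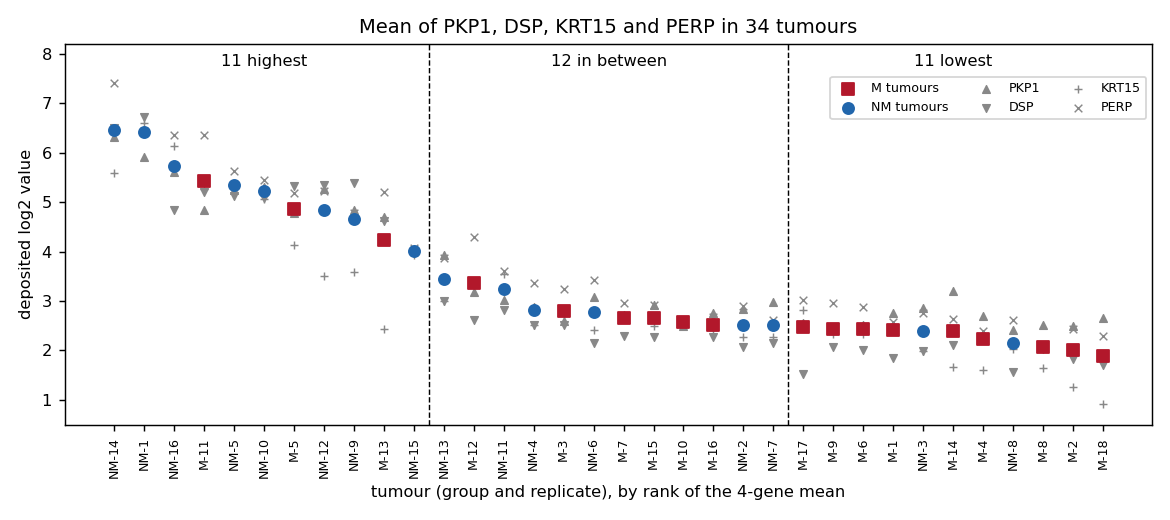
The y axis gives the deposited log2 value, and the x axis the 34 tumours by rank of the 4-gene mean. Filled squares (M) and circles (NM) are the means, grey symbols the 4 genes, and the dashed lines the borders of the 11 highest and the 11 lowest tumours, whose means start at 4.01 and end at 2.48.

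The keratinocyte-rich set held 3 M and 8 NM MCTs, the keratinocyte-poor set 9 M and 2 NM MCTs, and the tumours in between 6 of each. Metastasis group was therefore a covariate in every comparison unless stated otherwise, and differences within the NM MCTs rest on only 2 keratinocyte-poor tumours. The rich set came from 3 Labrador Retrievers, 2 Golden Retrievers and 1 dog each of Boxer, Cross-breed, Curly Coated Retriever, Miniature Schnauzer, Staffordshire Bull Terrier and Whippet. The poor set came from 2 Boxers, 2 Cross-breed dogs and 1 dog each of Dogue de Bordeaux, German Shepherd Dog, Golden Retriever, Hungarian Vizsla, Labrador Retriever, Staffordshire Bull Terrier and Whippet.

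Array measures moved with the ranking. The SD of all values on an array was 1.21 to 1.36 in the rich and 1.00 to 1.33 in the poor MCTs, and the array median 1.79 to 1.84 against 1.82 to 1.91. An SD under 1.1 was found on 4 keratinocyte-poor arrays, those of M replicates 1, 9 and 14 and NM replicate 3, and on 0 rich arrays. Results below are therefore also given with the array SD or the array median as a further covariate and without these 4 tumours, settings that were chosen after seeing the data. The biopsies are bulk tissue, in which fewer cells of a type and less RNA per cell cannot be told apart.

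A keratinocyte-poor tumour stood apart in pigment cell genes. The tumour labelled NM replicate 8 had the pigment cell genes PMEL at 6.44, DCT at 5.36 and TYR at 4.79, while the highest values in the other 33 tumours were 2.62, 2.12 and 1.79. PMEL builds the fibrils of the melanosome, and DCT and TYR are enzymes of melanin synthesis. In the same tumour the mast cell genes CPA3 (2.12), CMA1 (2.35), KIT (2.18) and HDC (1.33) were low. HDC had its lowest value of the 34 tumours there, and the other 3 genes were lower in some tumours that had no such pigment cell values. These are 4 of the 27 tested mast cell genes. Which cells the pigment cell RNA came from was not tested. CPA3 and CMA1 encode granule proteases, KIT the receptor on which mast cells depend, and HDC the enzyme that makes histamine. This tumour is 1 of the 2 keratinocyte-poor NM MCTs. The count of all higher clusters is also given without it, as are counts for several of the gene lists.

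Of 19242 Transcript clusters above the level filter, other than the 4 that made the ranking, 102 were higher in the keratinocyte-rich MCTs at an adjusted p under 0.05 (limma, Benjamini-Hochberg), 0.530% of those tested, and 4 were lower, 0.0208%. At an unadjusted p under 0.05 the counts were 1834 higher and 995 lower. All differences are log2 expression in the rich minus the poor MCTs. An adjusted p here shows that a gene varied with the 4-gene mean on the same arrays, and p-values measure the spread between tumours. By gene symbol, 82 genes were higher, 0.783% of 10467, and 0 were lower, with 268 genes lower at an unadjusted p under 0.05, 2.56% of all. The 4 lower clusters have no gene symbol, and they differed by -0.78 to -1.31 from means of 2.01 to 2.67 in the poor MCTs, near the table median of 1.84. All 106 clusters differed in the same direction within the M MCTs and within the NM MCTs. The fit that called them joins these same differences, which makes this likely, and the NM part rests on 2 poor tumours.

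The contrast was one-sided and steep. Differences of at least 1 were measured for 286 genes, 53 of them with an adjusted p under 0.05, and 0 genes differed by -1 or less. Of the 10467 genes, 35 (0.334%) had no overlap between the 11 rich and the 11 poor MCTs, every one of them higher in the rich MCTs. Over all genes the median difference was 0.06, and 61.2% of genes had a difference above 0.

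Keratins of the epidermis were among the genes that differed most. KRT1 and KRT10, the paired keratins of suprabasal keratinocytes, had the largest differences of the genes named here. KRT1 was 5.75, 7.98 and 9.11 (lowest, median and highest) in the rich and 1.52, 1.97 and 2.71 in the poor MCTs. The groups lay far apart even at their nearest tumours. The difference was 5.34 ± 0.44 (SE, 11 against 11 tumours), or 40.4-fold (limma, adjusted p = 2.22e-07).

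KRT10 was 5.85, 7.71 and 9.02 in the rich and 1.85, 2.02 and 2.68 in the poor MCTs. Its difference was 5.20 ± 0.36 (limma, adjusted p = 1.3e-08), 5.10 within the M and 5.36 within the NM MCTs. The basal keratin KRT5 was 5.41, 6.82 and 7.47 in the rich and 2.14, 2.39 and 3.13 in the poor MCTs. The poor tumours lay close together, far below the rich ones. KRT5 differed by 4.36 ± 0.23, 20.5-fold, with the smallest p of all clusters (limma, adjusted p = 1.8e-10). It was 5.68 in NM replicate 13, the tumour ranked just below the upper border, but its median in the tumours in between was 3.16. KRT14, the basal partner of KRT5, was not analysed here.

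The other suprabasal keratins on the list did not pass the adjusted threshold. Of 7 tested, KRT10 and KRT1 were called, where 0.783% of all genes were called higher. All 7 had a difference above 0, with a median of 0.86. KRT2, a keratin of the uppermost living layer, reached 8.06 in NM replicate 12 and 6.26 in NM replicate 16 but had a median of 2.44 in the rich MCTs (difference 1.24, limma, adjusted p = 0.423). KRT24 was at 4.90 and 4.81 in the same 2 tumours and at most 1.96 in the other rich MCTs.

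**Figure D2:**
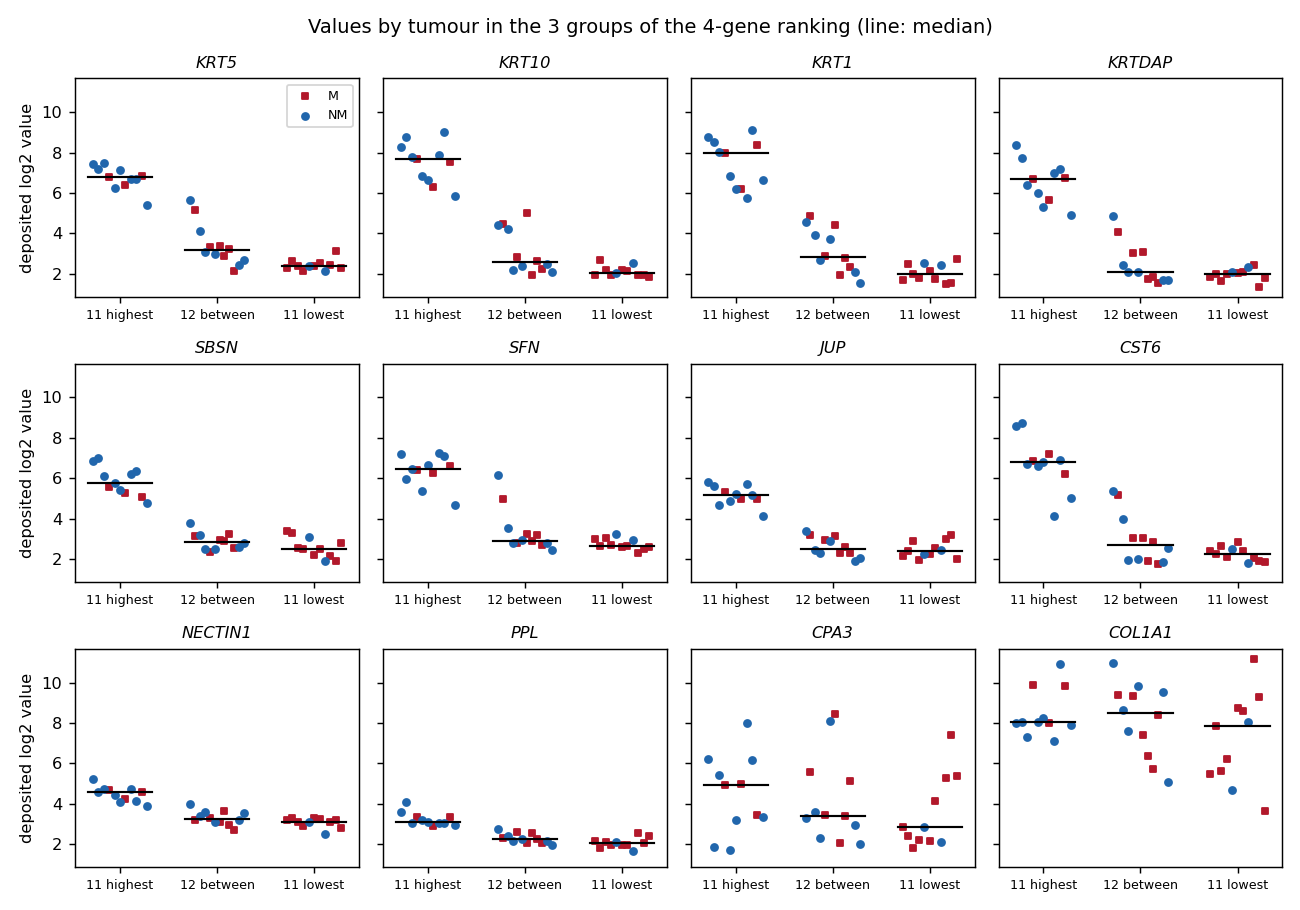
Each panel gives the deposited log2 value of a gene (y axis) in the 11 highest, the 12 tumours in between and the 11 lowest (x axis), with tumours in rank order from left to right within a group, squares for M, circles for NM and a line at the median. KRT5, KRT10 and KRT1 have no overlap between the outer groups, whereas the mast cell gene CPA3 and the collagen gene COL1A1 overlap over most of their range.

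In the basal layer and hemidesmosome list, 3 of 8 tested genes were higher (KRT5, ITGB4 and COL17A1), against 0.783% of all genes. None was lower, and the median difference was 0.56. Without NM replicate 8, 2 of the 8 passed. ITGB4, the β4 integrin chain of the hemidesmosome, was 2.71, 3.30 and 3.56 in the rich and 1.95, 2.23 and 2.44 in the poor MCTs. The groups did not overlap although the difference was only 0.90 ± 0.13 (limma, adjusted p = 0.000447). COL17A1, the transmembrane collagen of the same structure, differed by 0.56 ± 0.11 (adjusted p = 0.0222). ITGA6, the partner of ITGB4, differed by 0.56 as well and did not pass (adjusted p = 0.0599).

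Desmosome genes other than the ranking genes were higher in 5 of 10 tested cases, against 0.783% of all genes. All 10 differences were above 0, with a median of 1.06. The PERP, PKP1 and DSP values that chose the tumours belong to the same structure, so this list is close to the rule. JUP, plakoglobin, which links desmosomal cadherins to desmoplakin, was 4.14, 5.16 and 5.80 in the rich and 1.96, 2.40 and 3.17 in the poor MCTs. It differed by 2.70 ± 0.23 with no overlap (limma, adjusted p = 2.22e-07). The cadherins of the upper epidermis, DSC1 (2.09 ± 0.36, adjusted p = 0.00559) and DSG1 (1.91 ± 0.35, adjusted p = 0.00988), were higher, and so were the plakins PPL (1.22 ± 0.16, adjusted p = 0.000117) and EVPL (0.54 ± 0.12, adjusted p = 0.0425). DSC3, a cadherin of the lower layers, did not overlap between the groups (2.33 to 4.91 against 1.28 to 1.90) but had an adjusted p of 0.0833. On this list 7 of the 10 genes did not overlap, against 0.334% of all genes. The level filter can be passed through high values in the rich MCTs alone. Of the 10 genes, 4 had a poor mean at or below the table median. DSG2, DSG4 and PKP2 did not pass it, with means of 1.40, 1.56 and 1.47 in the rich and 1.39, 1.58 and 1.51 in the poor MCTs. The counts for this list are therefore a description.

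Of 15 tested genes of tight, adherens and gap junctions, 3 were higher, against 0.783% of all genes, and 0 lower (median difference 0.46). The gap junction gene GJB2, connexin 26, was 1.88, 3.96 and 5.66 in the rich and 1.64, 1.99 and 2.19 in the poor MCTs, a difference of 2.02 ± 0.44 (limma, adjusted p = 0.0365). GJB5 differed by 0.87 ± 0.16 and CDH1, E-cadherin, by 0.92 ± 0.20 (adjusted p = 0.0114 and 0.0311). These 3 calls did not hold without NM replicate 8, without the 4 arrays of low SD or with either array covariate, where 0 of the 15 passed. NECTIN1, an adhesion molecule of adherens junctions outside the list, was 3.87, 4.57 and 5.23 against 2.50, 3.10 and 3.31 and differed by 1.50 ± 0.16 (adjusted p = 1.21e-05).

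The genes of terminal differentiation were partly called. Of 20 tested genes of the cornified envelope and barrier lipids, 7 were higher, against 0.783% of all genes, and 0 lower. The median difference was 0.63. Of the 20, 3 had a poor mean at or below the table median, so the counts depend on the level filter. KRTDAP, a secreted protein of differentiating keratinocytes, was 4.92, 6.72 and 8.37 in the rich and 1.36, 1.99 and 2.45 in the poor MCTs, a difference of 4.43 ± 0.37 (limma, adjusted p = 2.22e-07). SBSN, suprabasin, was 4.76, 5.78 and 7.01 against 1.90, 2.51 and 3.37 and differed by 3.07 ± 0.30 (adjusted p = 2.51e-06). SFN, the 14-3-3σ protein of stratified epithelia, was 4.65, 6.45 and 7.27 against 2.31, 2.65 and 3.25 and differed by 3.54 ± 0.30 (adjusted p = 2.22e-07). None of these 3 genes overlapped between the groups, which held for 0.334% of all genes.

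CALML5, LYPD3, DMKN and CNFN were the other called members, with differences from 1.11 to 1.71. The envelope precursors IVL and LORICRIN and the cross-linking enzyme TGM1 were not called. IVL, involucrin, was 4.57, 5.27 and 6.65 in the rich and 3.58, 4.60 and 4.96 in the poor MCTs (difference 0.87, adjusted p = 0.167). LORICRIN differed by 0.55 (adjusted p = 0.489), and the transglutaminase TGM1 by 0.37 (adjusted p = 0.232).

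Among 17 tested proteases and inhibitors of desquamation, 3 inhibitors were higher, against 0.783% of all genes, and 0 genes lower (median difference 0.49). Of the 17, 7 had a poor mean at or below the table median, among them the called SPINK5 (1.83) and SERPINB8 (1.56). They may have passed the level filter through the rich MCTs alone, so these counts are a description. CST6, cystatin M/E, an inhibitor of epidermal cathepsins, was 4.10, 6.83 and 8.74 in the rich and 1.81, 2.23 and 2.85 in the poor MCTs. It differed by 4.50 ± 0.48, 22.7-fold (limma, adjusted p = 1.02e-05). SPINK5, the inhibitor LEKTI that holds back epidermal kallikreins, was 2.17, 3.67 and 5.58 against 1.54, 1.88 and 2.03, a difference of 1.89 ± 0.40 (adjusted p = 0.0289), and SERPINB8 differed by 0.49 ± 0.10. The kallikreins were not called. KLK7, a protease that cuts desmosomal proteins of the cornified layer, differed by 0.70 (adjusted p = 0.295), and its 2 highest values were 4.51 in NM replicate 1 and 4.35 in NM replicate 14.

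Regulators of epidermal transcription and splicing had mostly small differences above 0. Of 18 tested, 15 had a difference above 0, against 61.2% of all genes. A poor mean at or below the table median was found for 6 of the 18, so the counts depend on the level filter. At an unadjusted p under 0.05, 8 were higher, against 11.9% of all genes, or 3 without NM replicate 8. KLF4, a factor of terminal differentiation, was the only one called higher (1.04 ± 0.22, limma, adjusted p = 0.0298), 0 were called lower and the median was 0.23. KLF4 did not pass without NM replicate 8, without the 4 arrays of low SD or with the array SD as covariate. TP63, the master regulator of stratified epithelia, was 3.04, 3.55 and 4.63 in the rich and 2.32, 3.02 and 3.35 in the poor MCTs (difference 0.56, adjusted p = 0.24). The clusters of BARX2, a homeobox factor of epithelia, disagreed: the cluster with the higher mean differed by 0.77 (adjusted p = 0.0766), and another by 2.78 with an adjusted p under 0.05. Of 6 EGF receptor family genes and ligands and 13 Notch pathway genes tested, 0 were called, with medians of 0.32 and 0.21.

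**Figure D3:**
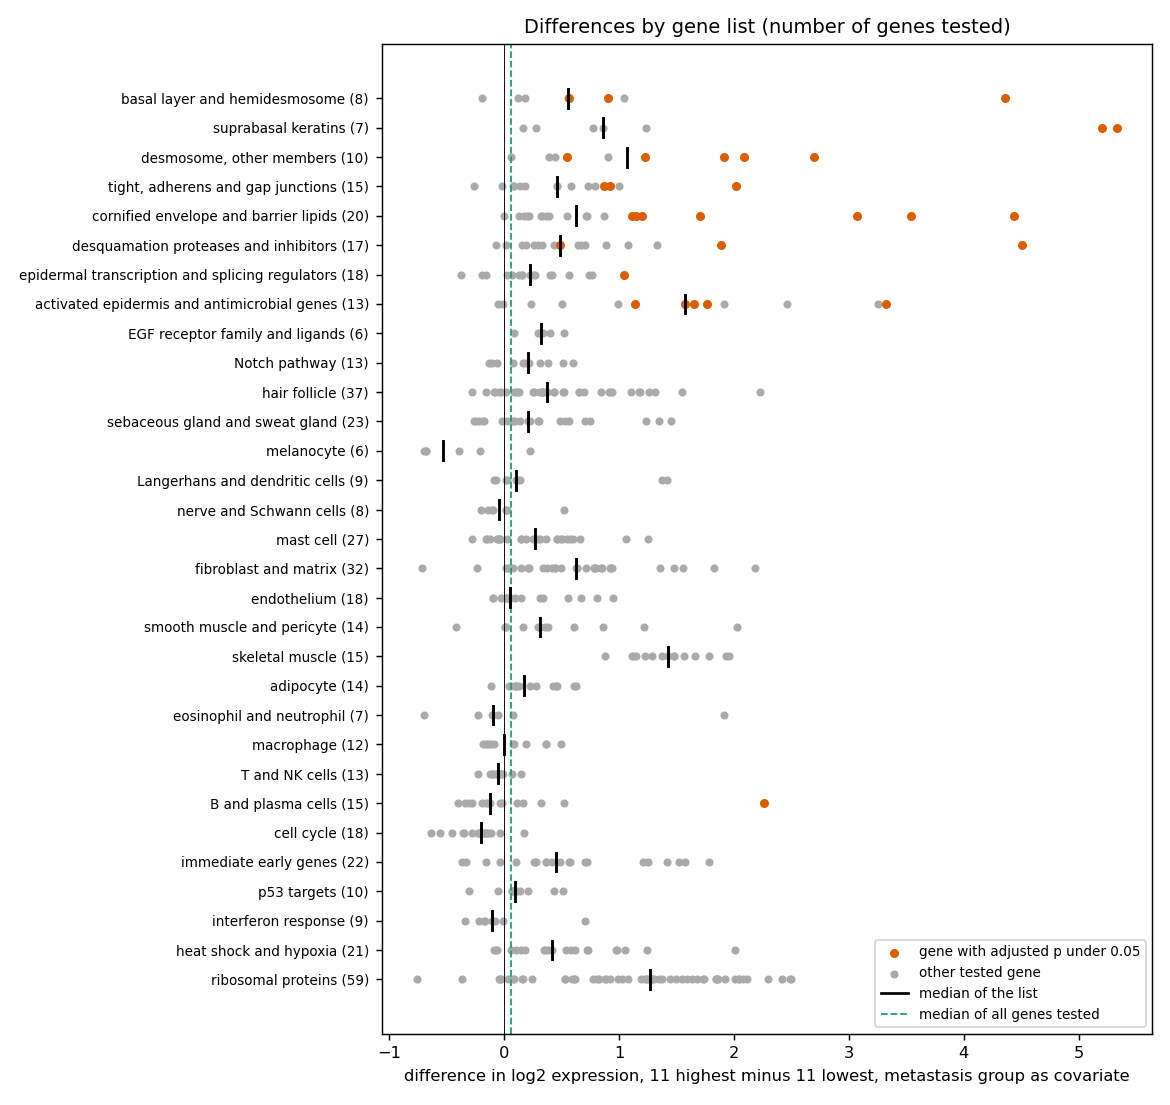
The x axis gives the difference in log2 expression, the 11 highest minus the 11 lowest tumours with metastasis group as covariate, and each row is a gene list with its number of genes tested. Orange points have an adjusted p under 0.05, grey points do not, black bars are list medians and the dashed line is the median of all genes (0.06). The called genes lie in the keratinocyte lists at the top, apart from SDC1 in the B and plasma cell list, and the ribosomal and skeletal muscle lists have medians of 1.27 and 1.43 with 0 called genes.

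Genes of activated or inflamed epidermis divided into those that followed the ranking and those that did not. Of 13 tested, 5 were higher and 0 lower, with a median difference of 1.57. KRT6A, a keratin of hair follicles and wounded epidermis, was 4.65, 6.68 and 8.83 in the rich and 2.66, 3.14 and 4.21 in the poor MCTs, a difference of 3.32 ± 0.47 (limma, adjusted p = 0.000455). KRT17, of similar sites, differed by 1.57 ± 0.26 (adjusted p = 0.00335). S100A2, S100A14 and S100A16, calcium-binding proteins of epithelia, differed by 1.77, 1.65 and 1.14, and all 3 passed.

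S100A9, a subunit of calprotectin made by neutrophils as well as by activated keratinocytes, was not called although its difference was 3.25 (adjusted p = 0.232). It was 8.63, 6.77, 7.77, 9.05, 8.77 and 8.18 in NM replicates 14 and 16, M replicate 11, NM replicates 12 and 9 and M replicate 13. It was 3.24 in NM replicate 1 and between 1.47 and 1.83 in NM replicates 5, 10 and 15 and M replicate 5. The rich MCTs thus fell far apart in this gene, and 6 of the 11 were above every poor MCT, the highest of which was NM replicate 8 at 4.11. S100A8 and S100A12 were above every poor MCT in the same number of rich tumours, 6 of 11. Of the 22 genes on the neutrophil and eosinophil list 7 were tested, S100A12 among them, with a median difference of -0.09. The mean of these 7 was 1.69, 2.50 and 3.28 in the rich and 1.95, 2.09 and 2.92 in the poor MCTs. Which cells the S100 RNA came from was not tested.

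Hair follicle genes showed another division of the rich tumours. The genes of this and the next paragraph were singled out after their values had been seen and were not tested beyond the fit across all clusters. KRTAP3-1, a matrix protein of the hair shaft, was 7.48, 7.01, 6.55, 6.25 and 5.81 in NM replicates 10, 1, 5 and 14 and M replicate 5. It was 4.65 in NM replicate 9, 3.87 in NM replicate 15, 3.10 in NM replicate 16 and between 1.70 and 2.43 in M replicates 11 and 13 and NM replicate 12. The poor MCTs reached 2.61. TCHH, trichohyalin of the inner root sheath, was between 4.40 and 5.58 in the same 5 tumours and at most 2.61 in the other 6. Over the hair follicle list 0 of 37 genes were called, 11 were higher at an unadjusted p under 0.05 against 11.9% of all genes, and the median difference was 0.37. Without NM replicate 8 only 4 of the 37 were higher at that level, and with the array median as covariate 7 were. The mean of the list reached 3.91 in NM replicate 10 and was 2.27 to 2.33 in M replicates 11 and 13 and NM replicate 12, within the 1.94 to 2.52 of the poor MCTs.

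The lipid enzyme genes FASN and SCD, active in sebaceous glands and fat, were at 6.57 and 7.97 in NM replicate 10 and at 2.94 and 3.25 in NM replicate 12. SOAT1, an enzyme of sterol esters, was 5.14 in NM replicate 14 and 4.11 in NM replicate 1, and PIP, a secretory product of sweat glands, was 6.03, 5.35, 5.34 and 4.92 in NM replicate 14, M replicate 11 and NM replicates 1 and 9. KRT5, by contrast, was between 5.41 and 7.47 in all 11. None of the 23 tested sebaceous and sweat gland genes was called (median 0.21).

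**Figure D4:**
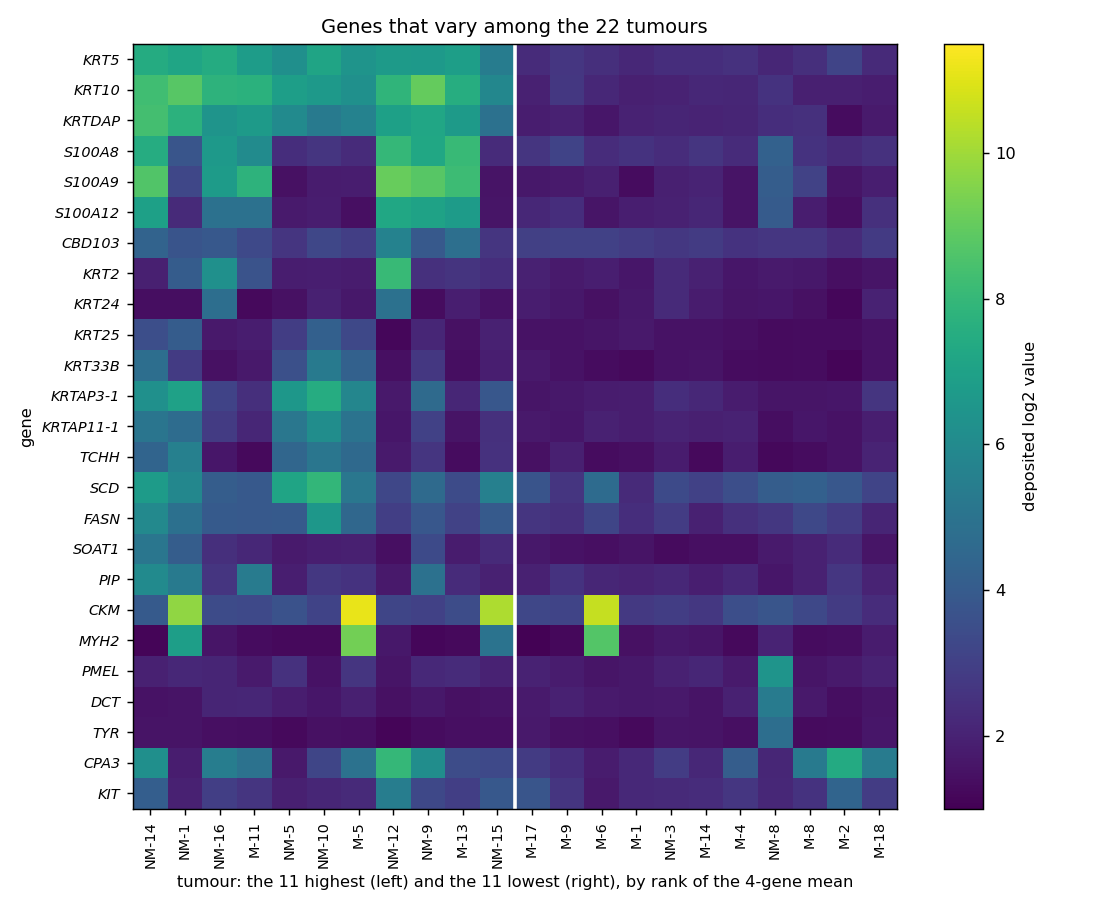
Colour gives the deposited log2 value of each gene (rows) in the 11 highest tumours (left of the white line) and the 11 lowest (right), in rank order. KRT5, KRT10 and KRTDAP are high in all tumours on the left, the S100 genes and the hair genes (KRT25 to TCHH) are high in different subsets of them, and NM replicate 8 on the right has PMEL, DCT and TYR at 6.44, 5.36 and 4.79.

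Several called genes outside the keratinocyte lists, also singled out after their values had been seen, are known from epithelia. SDC1, a heparan sulphate proteoglycan of epithelia that plasma cells also carry, differed by 2.26 ± 0.31 (limma, adjusted p = 0.000399) and was the only called member of 15 on the B and plasma cell list, whose median was -0.13. FXYD3, a sodium pump regulator (1.95 ± 0.30), EMP2, an epithelial membrane protein (1.43 ± 0.28), and TRIM29, a protein of stratified epithelia (1.57 ± 0.30), did not overlap between the groups. Among all genes 0.334% did not overlap. AHNAK, a scaffold protein of many cell types, was 4.45, 5.76 and 6.67 in the rich and 2.08, 2.87 and 5.80 in the poor MCTs, a difference of 2.48 ± 0.49 (adjusted p = 0.0163). The groups overlapped, as they did for GSN, the actin-severing protein gelsolin (1.81 ± 0.41), and for PRNP, the prion protein (1.56 ± 0.27). GSN was called in 19 of the 46 settings tried. ANXA8L1, KRT6A and FAM25A belong to families of near-identical genes, which an array can only partly separate.

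Some called genes are neighbours. In the order of genes of the dog assembly UU_Cfam_GSD, which is not the build of the array annotation, SBSN, DMKN and KRTDAP follow each other with 0 coding genes between them. The same holds for KRT6A and KRT5, for DSG1 and DSC1 and for S100A14, S100A16 and S100A2. Whether called genes lie together more often than other genes was not tested.

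The 12 tumours in between were close to the keratinocyte-poor ones. Of the 102 higher clusters, 89 had a mean in these tumours between those of the outer groups, 13 had a mean at or below that of the poor MCTs, and 96 were nearer to the poor MCTs. At the median the tumours in between had covered 17.1% of the distance from poor to rich. The ranking makes such a position likely and it was not tested. The 4-gene mean itself averaged 5.20 in the rich, 2.82 in the in-between and 2.26 in the poor MCTs, and the clusters were called for following it. KRT10 was 1.96, 2.57 and 5.03 in them and KRTDAP 1.55, 2.10 and 4.84, in both cases below every rich tumour. SFN, with 6.15 in NM replicate 13, was above the lowest rich value of 4.65.

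Mast cell genes did not separate the groups. Of 27 tested, 0 were called or had an unadjusted p under 0.05, and the median difference was 0.27, or 0.12 without NM replicate 8. CPA3 was 1.71, 4.94 and 8.01 in the rich and 1.79, 2.84 and 7.42 in the poor MCTs. These ranges overlapped almost entirely (difference 1.25 ± 0.92, adjusted p = 0.543). KIT was 1.94, 2.96 and 5.46 against 1.73, 2.54 and 4.37 (difference 0.31 ± 0.47, adjusted p = 0.789), with -0.19 within the M and 1.02 within the NM MCTs. The mean of the list was 2.15 to 4.45 in the rich and 2.24 to 3.73 in the poor MCTs. CPA3 was under 2 in NM replicates 1 and 5 among the rich and in M replicate 6 among the poor MCTs. MS4A2, the β chain of the IgE receptor, differed by 0.66 ± 0.49 and HDC by 0.27 ± 0.33 (adjusted p = 0.542 and 0.744).

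Other cells of the skin gave few differences at an adjusted p under 0.05. Of 14 smooth muscle and pericyte genes 0 were called, with 4 higher and 1 lower at an unadjusted p under 0.05 (limma, median 0.31). Of 14 adipocyte genes 0 were called and 4 were higher at that level (median 0.18), against 11.9% of all genes. Without NM replicate 8, 3 smooth muscle and pericyte genes and 1 adipocyte gene were higher at that level. For melanocytes 5 of 6 tested genes had a difference below 0, with a median of -0.54, which became 0.01 without NM replicate 8. For T and NK cells 0 of 13 genes were called (median -0.05), for macrophages 0 of 12 (median -0.01, CD163 0.09 ± 0.24), for endothelium 0 of 18 (median 0.05, PECAM1 0.81 ± 0.48), for Langerhans and dendritic cells 0 of 9 (median 0.10) and for nerve and Schwann cells 0 of 8 (median -0.04). All 15 skeletal muscle genes had a difference above 0 and 0 were called. Their list mean was 8.96 in M replicate 5, 7.34 in NM replicate 15 and 6.05 in NM replicate 1 among the rich, 7.80 in M replicate 6 among the poor and at most 2.52 in the other 18 of the 22 tumours. CKM, the creatine kinase of muscle, reached 11.2 in M replicate 5.

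Genes of dividing cells pointed the other way, without a call. Of 18 tested cell cycle genes 17 had a difference below 0, while 61.2% of all genes had one above 0. Of the 18, 5 were lower at an unadjusted p under 0.05, against 2.56% of all genes, and the median was -0.21. The deposited values held 34 genes of this list, and those not tested did not pass the level filter. In M tumours alone 0 of the 18 were lower at an unadjusted p under 0.05 (limma). Other lists also lay mostly below 0, with 8 of 9 interferon response and 11 of 13 T and NK cell genes. The B and plasma cell list had 10 of 15 below 0. With no level filter, 3528 clusters were lower and 1994 higher at an unadjusted p under 0.05 (limma). MKI67, the proliferation marker Ki-67, was 1.50, 1.77 and 2.20 in the rich and 1.82, 1.94 and 2.21 in the poor MCTs (difference -0.20 ± 0.09, adjusted p = 0.328), values around the table median of 1.84. UBE2C and BIRC5, which act in mitosis, differed by -0.64 and -0.56 (adjusted p = 0.241 and 0.197), and their highest value in the 22 tumours was in NM replicate 8 (4.98 and 4.28). Without that tumour 2 of the 18 had an unadjusted p under 0.05. COL10A1, a collagen of growth plate cartilage, had the smallest adjusted p of the genes that were lower (-0.54 ± 0.13, limma, adjusted p = 0.0588). The next lower genes by p were OR10A5E, an olfactory receptor gene (-0.62 ± 0.16, adjusted p = 0.0881), and CYLC1, a sperm head protein gene (-0.51 ± 0.14, adjusted p = 0.11), both with medians under 2 in both groups.

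Several lists of abundant genes were higher on average, beside the array measures. Of 59 ribosomal protein genes 54 had a difference above 0, 34 were higher at an unadjusted p under 0.05, 0 were called, and the median was 1.27. Among all genes, 61.2% had a difference above 0 and 11.9% were higher at that level. Without NM replicate 8, 45 of the 59 were higher at that level and the median was 1.66. The mean of the ribosomal list was 5.15, 5.62 and 6.67 in the rich and 2.89, 4.81 and 6.18 in the poor MCTs. With the array SD as covariate its median fell to 0.06, with the array median to 0.34 and without the 4 poor tumours of low array SD to 0.23. COL1A1, a chain of type I collagen, was 7.09, 8.03 and 10.9 in the rich and 3.65, 7.86 and 11.2 in the poor MCTs, which overlapped widely (difference 1.83 ± 0.86, limma, adjusted p = 0.335). The fibroblast and matrix list, with 30 of 32 genes above 0 and 0 called, went from a median of 0.63 to 0.15, 0.10 and 0.25 in the same settings. The immediate early genes, which answer quickly to stress or stimulation, went from 0.45 to 0.31, 0.25 and 0.44.

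The keratinocyte lists moved to different extents in these settings. The median of the other desmosome genes went from 1.06 to 0.96, 0.94 and 1.05, and that of the suprabasal keratins from 0.86 to 0.92, 1.06 and 0.93. The junction list went from 0.46 to 0.31, 0.33 and 0.41, and the basal and hemidesmosome list from 0.56 to 0.46, 0.36 and 0.56. The count of called desmosome genes went from 5 to 2, 2 and 2, and 3 without NM replicate 8. That of activated epidermis went from 5 to 3, 1 and 2, and 3 without that tumour, and that of desquamation from 3 to 1 in each of the 4 settings. That of the cornified envelope list went from 7 to 7, 5 and 6, and 6 without that tumour. The total of higher clusters fell from 102 to 38 with the array SD as covariate, to 25 with the array median and to 35 without the 4 tumours, and 37, 24 and 35 of these were among the original calls. Without NM replicate 8 the total was 36, all among the original calls. The part of array quality in the differences was not tested beyond these values.

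**Figure D5:**
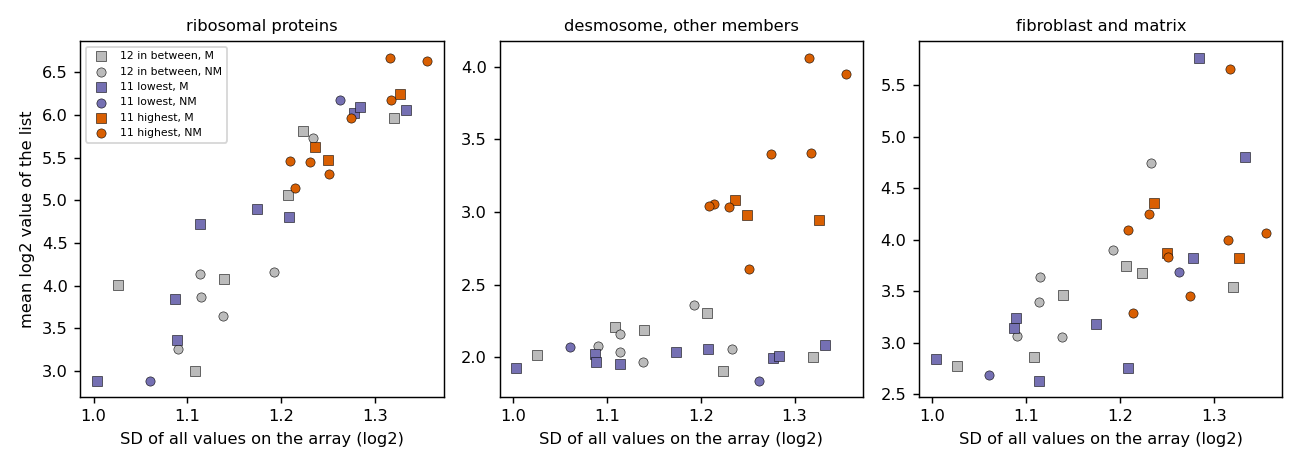
Each point is a tumour, with the SD of all its log2 values on the x axis and the mean log2 value of a gene list on the y axis, orange for the 11 highest, purple for the 11 lowest and grey for the 12 tumours in between, squares for M and circles for NM. The ribosomal list runs from 2.89 to 6.67, and its relation to the array SD within the groups was not tested. The desmosome list is 2.61 or more in the orange tumours and at most 2.36 in the others, and the fibroblast list overlaps.

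Whether the contrast differed between M and NM MCTs was tested as an interaction. Of 19242 clusters 0 passed (0%), the smallest adjusted p was 0.339, and 586 had an unadjusted p under 0.05 (limma). With 3 M MCTs among the rich and 2 NM MCTs among the poor, this does not show that the contrast was the same in both. KRT5 differed by 4.24 within the M and 4.52 within the NM MCTs, KRTDAP by 4.47 and 4.39, SBSN by 2.72 and 3.57 and DSG1 by 1.61 and 2.34.

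Of the epithelial microRNA precursors, 1 of 11 in the table was above the level filter. MIR205, the precursor of a microRNA of stratified epithelia, was 1.86, 2.48 and 3.38 in the rich and 1.87, 2.12 and 3.45 in the poor MCTs, a difference of 0.23 ± 0.28 (limma, adjusted p = 0.727).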

How the data were processed

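Total RNA from FFPE biopsies was amplified, labelled and hybridised to Canine Gene 1.1 ST arrays. The authors left out outlier arrays and made the deposited log2 values with the Robust Multichip Analysis algorithm (quantile normalisation and summarisation on the log2 scale), run in Expression Console 1.3 according to the processing notes of the submitters. The values were used as deposited. The table has 32391 Transcript clusters, of which 16878 have 1 gene symbol in the platform annotation, which can be old, 289 several and 15224 none, and 2686 share all their values with another cluster. The number of arrays limits the precision, the array strips are not given in the sources used here, and correlations between arrays ran from 0.636 to 0.954. All columns were mapped to tumours by title.

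Clusters had to exceed the table median (1.84) in 30% or more of either the M or the NM MCTs. The 19246 that did, the 4 ranking genes included, were fitted with limma 3.58.1 in R 4.3.3 (group of the ranking plus metastasis group, empirical Bayes, Benjamini-Hochberg adjustment over all clusters). The study's detection filter and its restriction to uniquely hybridising main clusters were not applied. The level filter could be passed through high values in the rich tumours alone, so counts for gene lists depend on it. Where several clusters carried a symbol, the brightest on average stands for the gene. Named genes came from the top 10 by p on either side (difference of 1 or more, 0.5 for lower genes, of which fewer than 10 reached 1), the top 4 by p of each gene list and a set of keratinocyte, mast cell and stromal markers. Further genes of the lists and called genes were named after their values were seen. The ranking genes, gene lists and tests were chosen with earlier results of these data known. Data were simulated with the mean of each cluster and the SD left after fitting the 4-gene mean and metastasis group. The fit recovered 22% of clusters changed by 0.5, 70% changed by 1, 94% changed by 2 and 78% changed by -1. Of 140 calls over 19246 clusters, 8 were false. The same SD was used for both sets, while DSG1, for example, had an SD of 1.02 in the rich and 0.18 in the poor MCTs. Each simulated cluster was drawn independently, so calls from shifts shared by many clusters of an array are not covered. Alternatives covered filters, covariates, ranking rules, group sizes, variance models, array weights, renormalisation, the methods' t-test and leaving out each tumour.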

Additional observations from a re-analysis of the deposited data

Results flagged for a closer look

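Within the ranking groups, split by metastasis group where 4 to 10 tumours allowed it, the mean of each gene list was checked for a tumour far from the others of its group. Such a tumour was found in 14 of 128 groups (10.9%), where chance flags about 1 in 20.

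Among the keratinocyte-rich NM MCTs, NM replicate 9 had a fibroblast and matrix mean of 5.66 (next 4.25), NM replicate 14 a junction mean of 3.66 (next 3.18) and NM replicate 5 a melanocyte mean of 2.49 (next 2.21). Among the keratinocyte-poor M MCTs, M replicate 6 had a skeletal muscle mean of 7.80, far above the next tumour at 2.34. M replicate 2 had the highest endothelium mean (3.43, next 2.90) and the highest mast cell mean (3.73, next 3.00), and M replicate 8 the highest interferon response mean (2.80, next 2.45).

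Among the tumours in between, NM replicate 13, ranked just below the keratinocyte-rich set, had means of 3.27 for activated epidermis (next 2.33) and 2.50 for desquamation genes (next 2.16). NM replicate 6 stood apart with a mast cell mean of 3.76 (next 2.76) and a ribosomal mean of 5.73 (next 4.16). M replicate 7 had a macrophage mean of 3.04 (next 2.35), M replicate 12 a sebaceous and sweat gland mean of 2.67 (next 2.25) and M replicate 15 a value of 3.07 for the tested microRNA precursor (next 2.43).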

How the results depend on the processing

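The 102 higher clusters stayed within 1.5 times of that count under other filters, with 1 cluster per symbol, with identical clusters counted once, with 3-gene or z-score rankings, and with variance trends. The ranking without PERP and the z-score ranking chose the same tumours as the main ranking, so their counts had to be the same. They became 233 without the metastasis covariate, 42 in M and 14 in NM tumours alone, 39 with 8 against 8 and 57 with 17 against 17 tumours, 665 with the 4-gene mean as a continuous covariate, 59 with array weights, 64 after repeated quantile normalisation and 178 by the methods' t-test. With choices made after seeing the data they became 25 (array median), 38 (array SD) and 35 (without the 4 arrays of low SD). Leaving out 1 tumour gave 36 to 211. The count was 36 without NM replicate 8, 211 without M replicate 2, 58 without NM replicate 3, 63 without M replicate 11 and 62 without M replicate 13.

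The 4 lower clusters became 13 with no filter, 7 with the 75th percentile filter, 2 with 1 cluster per symbol, 19 without the covariate, 0 in M and 10 in NM tumours alone, 0 with 8 against 8 and 1 with 17 against 17 tumours, 47 with the continuous mean, 2 without KRT15 in the ranking, 1 with array weights, 22 by the methods' t-test, and 0 with the array median, the array SD or without the 4 arrays. Leaving out 1 tumour gave 0 (NM replicates 3 and 8) to 20 (M replicate 2), with 2 without NM replicate 1, 5 or 9 or M replicate 5 or 14, 7 without NM replicate 10 and 15 without M replicate 8. The causes were not tested. The interaction gave 4 clusters with no filter, all without a symbol.

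After repeated quantile normalisation, 1335 clusters were higher and 1634 lower at an unadjusted p under 0.05, against 1834 and 995 before, and the median over all clusters went from 0.02 to -0.04. None of the 106 called clusters changed sign in any of the 46 settings. These share tumours with the fit that called them, and the ranking without PERP and the z-score ranking repeat it. KRT5, KRT10, JUP and SBSN were called in every setting, 34 clusters in at least 40 and 13 in under 20. Of the named genes, KIT turned to -0.186 in M tumours alone and -0.0634 with the array SD, HDC to -0.113 in M tumours alone, -0.0166 with the array median and -0.0268 with the array SD, PECAM1 to -0.0339 with the array median, and CD163 to -0.0212 without the covariate and by the t-test, -0.00324 in M tumours alone, -0.0361 with the array median, -0.114 with the array SD and -0.00728 without the 4 arrays.

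The replicate numbers pair no dogs. As a replicate block they gave 99 higher and 4 lower clusters and 0 changes of direction. Deviations of same-numbered tumours correlated at -0.49 to 0.45 over 16 pairs (median -0.12). Genes near the table median are close to background on these arrays, which limits what can be seen of low genes.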
